A study of Rattus norvegicus with 30 samples.

Results

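The genes described here are the matrix metalloproteinases (Mmp), the ADAMTS proteases, the related ADAMTS-like proteins (Adamtsl) and the tissue inhibitors of metalloproteinases (Timp) of the rat lung. They were taken as all protein-coding genes whose symbol begins with Mmp, Timp, Adamts or Adamtsl followed by a digit, which gave 45 of 22914 genes with counts, 19065 of them protein-coding. The 45 genes were 18 Mmp, 4 Timp, 18 Adamts and 5 Adamtsl genes. The study sequenced poly(A) RNA from lungs of rats with severe acute pancreatitis (SAP), with and without dexamethasone (DEX) or emodin, to compare lung injury and its treatment.

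All rats were male Sprague Dawley animals of 8 weeks and 180 to 220 g, fasted for 12 h before surgery. SAP rats had 5.0% sodium taurocholate infused into the biliopancreatic duct, Con rats had saline infused there, and in Sham rats the pancreas was only moved. DEX and Emo rats received taurocholate and then DEX, a synthetic glucocorticoid, intravenously at 10 mg/kg, or emodin, a plant anthraquinone, into the stomach. The emodin dose stands as 10 mg/kg in the sample descriptions and as 40 mg/kg in the treatment protocol. Drugs were due 2 and 12 h after surgery, so rats taken at 6 h had received 1 dose and rats taken at 24 h both, and all other rats received saline and the emodin vehicle. Lungs were taken at 6 or 24 h, which gave the 10 groups Con-6h, Sham-6h, SAP-6h, DEX-6h, Emo-6h, Con-24h, Sham-24h, SAP-24h, DEX-24h and Emo-24h, each with 3 rats and 1 library per rat. Replicate numbers name rats within a group.

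The libraries held 16813949 to 34692306 reads on genes, and replicates of a group differed far beyond sampling noise (chi-square per degree of freedom 37.4 to 208). The summed level of 6 alveolar type 2 cell markers lay between 24516 and 46984 FPKM in all 30 lungs, and pancreatic acinar markers summed to at most 0.8 FPKM. SAP-24h replicate 1 stood apart for several genes below, and its summed markers of alveolar type 1 cells (1371 FPKM), macrophages (169 FPKM) and mesothelium (12.3 FPKM) were the lowest of all 30 libraries, so results that rest on it are given with and without it. The summed FPKM of 10 neutrophil markers, mostly S100a8 and S100a9, was far higher in Sham-24h replicate 3 (9252) than in replicates 1 and 2 (1488 and 229). Of these markers, Ngp (113 and 5.94 FPKM) and Camp (54.4 and 16.1 FPKM) were higher in replicate 1 than in replicate 3. In the study's mapping statistics, libraries of rats given taurocholate had smaller shares of uniquely mapped reads than Sham and Con libraries, and in comparisons across that line this cannot be told apart from taurocholate. In whole lung, fewer cells of a type and less RNA per cell cannot be told apart.

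Matrix metalloproteinases are zinc enzymes that cut collagens, elastin and other matrix proteins, and TIMPs bind and block their catalytic site. ADAMTS proteases cut large proteoglycans such as versican and aggrecan, or trim procollagens, while ADAMTS-like proteins share their accessory domains but have no protease domain and bind fibrillin microfibrils. In the lung these enzymes remodel alveolar and vessel walls, and neutrophils carry Mmp8 and Mmp9 ready-made in their granules.

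The promoters of 34 of the 45 genes were matched to RefSeq sequences (build GRCr8). The other genes, named only, were Adamts5, Adamts8, Adamts15, Adamts16, Adamts19, Mmp2, Mmp9, Mmp14, Mmp16, Mmp17 and Mmp19. The 250 bases before the start of Timp1, Adamts4 and Adamts9 are shown because these were the 3 called genes with the largest rise in SAP-24h against Sham-24h. They were searched on both strands for the AP-1 site TGANTCA, the glucocorticoid half-site TGTTCT and the NF-kB consensus. The only match was an NF-kB consensus in Adamts9, which starts 57 bases before the start and is in capitals.
Timp1 (chrX:3771123-3771372, minus strand): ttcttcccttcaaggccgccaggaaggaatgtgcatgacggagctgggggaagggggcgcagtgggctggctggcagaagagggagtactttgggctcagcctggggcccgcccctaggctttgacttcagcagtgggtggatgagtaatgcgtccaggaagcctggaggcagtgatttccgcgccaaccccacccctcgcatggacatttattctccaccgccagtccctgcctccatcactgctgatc
Adamts4 (chr13:86202761-86203010, plus strand): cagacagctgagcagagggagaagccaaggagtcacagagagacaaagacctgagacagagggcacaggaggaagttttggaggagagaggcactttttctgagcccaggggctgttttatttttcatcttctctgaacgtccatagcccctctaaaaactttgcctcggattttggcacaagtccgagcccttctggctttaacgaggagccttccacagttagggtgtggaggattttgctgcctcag
Adamts9 (chr4:127019877-127020126, minus strand): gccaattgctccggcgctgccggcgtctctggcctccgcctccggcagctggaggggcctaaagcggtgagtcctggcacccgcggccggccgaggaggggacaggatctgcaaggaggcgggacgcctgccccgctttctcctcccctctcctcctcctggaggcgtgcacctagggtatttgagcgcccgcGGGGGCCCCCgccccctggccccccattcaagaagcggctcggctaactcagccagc

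In windows of the same length over all 33469 promoters of that build, an AP-1 site was found in 6.3%, an NF-kB consensus in 6.3%, a glucocorticoid half-site in 17.5% and the TATA box TATAAA in 12.9%. Among the 34 matched genes, the NF-kB consensus was found in 3, the glucocorticoid half-site in 6 and the TATA box in 13. The AP-1 site was found in 6, and all 6 belong to the Mmp cluster of chromosome 8. These 6 genes also hold a TATA box, which was found in 16.1% of the 2122 promoters with an AP-1 site. The pair was found in 1.02% of all promoters. The last 100 bases before each start are shown with both motifs in capitals, to show where the motifs lie in genes picked for holding the AP-1 site.
Mmp3 (chr8:12925181-12925280, plus strand): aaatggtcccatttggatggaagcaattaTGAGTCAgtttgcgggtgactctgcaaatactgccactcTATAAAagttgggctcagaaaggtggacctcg
Mmp7 (chr8:13132943-13133042, plus strand): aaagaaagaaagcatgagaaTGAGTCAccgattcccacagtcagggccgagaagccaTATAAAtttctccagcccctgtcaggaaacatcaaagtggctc
Mmp10 (chr8:12974607-12974706, plus strand): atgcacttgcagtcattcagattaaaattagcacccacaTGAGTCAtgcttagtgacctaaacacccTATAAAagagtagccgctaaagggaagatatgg
Mmp12 (chr8:12866552-12866651, plus strand): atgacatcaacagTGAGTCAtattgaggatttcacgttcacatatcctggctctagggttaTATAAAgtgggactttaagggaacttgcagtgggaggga
Mmp13 (chr8:12782729-12782828, plus strand): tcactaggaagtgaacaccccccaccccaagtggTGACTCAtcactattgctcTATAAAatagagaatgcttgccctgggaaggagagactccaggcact
Mmp20 (chr8:13074179-13074278, plus strand): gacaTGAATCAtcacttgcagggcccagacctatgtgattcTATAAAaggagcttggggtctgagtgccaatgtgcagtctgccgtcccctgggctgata

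Of these 6 genes, the stromelysins Mmp3 and Mmp10, the matrilysin Mmp7, the collagenase Mmp13 and the enamel protease Mmp20 were nearly silent in these lungs. Only the macrophage elastase Mmp12 had enough reads for testing, at a mean of 0.75 FPKM over the 30 libraries and a range of 0.03 to 3.6 FPKM. A match is a run of letters and not a measured binding site.

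Transcript levels were compared between genes as FPKM, a unit that corrects read counts for transcript length and sequencing depth. The inhibitors made up most of this RNA: Timp1 to Timp4 together held 51.2 to 72.6% of the summed FPKM of the 45 genes, with a median over libraries of 61.4%. Timp3, the inhibitor that binds to the matrix itself, had the highest mean over the 30 libraries at 228 FPKM, followed by Timp2 at 203 FPKM and Timp1 at 114 FPKM. The ranges of these 3 genes overlapped widely, and their order differed between groups: in SAP-24h rats the mean of Timp1 was 316 FPKM (SD 182, n = 3), that of Timp3 272 FPKM (SD 173) and that of Timp2 167 FPKM (SD 46.9). Among the SAP-24h rats, Timp1 exceeded Timp3 in replicate 1 only (518 and 76.15 FPKM). Timp1 also exceeded Timp3 in Con-24h replicate 1 (146 and 114 FPKM). In SAP-24h replicates 2 and 3, Timp1 read 164 and 265 FPKM and Timp3 read 403 and 338 FPKM. Mmp2, the gelatinase made mainly by fibroblasts, had the highest mean of the proteases over the 30 libraries at 75.1 FPKM.

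The order among the proteases also differed between groups. In SAP-24h rats Mmp8 averaged 101 FPKM (SD 46.0, n = 3) and Mmp2 52.8 FPKM (SD 17.9). In Emo-24h rats the means were 65.4 FPKM (SD 10.2, n = 3) and 61.5 FPKM (SD 15.5). Mmp2 averaged more than the inhibitor Timp1 in Con-6h rats (83.7 and 74.0 FPKM) and in Sham-24h rats (71.6 and 55.6 FPKM).

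By the mean over the 30 libraries, behind Mmp2 came the membrane-anchored Mmp15 at 48.6 FPKM, neutrophil collagenase Mmp8 at 36.8 FPKM and Mmp14, which activates Mmp2, at 28.1 FPKM. Adamts1, a versican-cutting protease, averaged 25.3 FPKM, Adamtsl2, a microfibril-binding protein, 23.1 FPKM, and the neutrophil gelatinase Mmp9 13.2 FPKM. Levels of Timp2 differed between its lowest and highest library by 2.39-fold, whereas Mmp8 ranged from 0.97 to 147 FPKM. Adamts5, an aggrecanase, stood at 0.32 to 1.34 FPKM, and Timp4 at 0.84 to 5.89 FPKM.

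**Figure D1:**
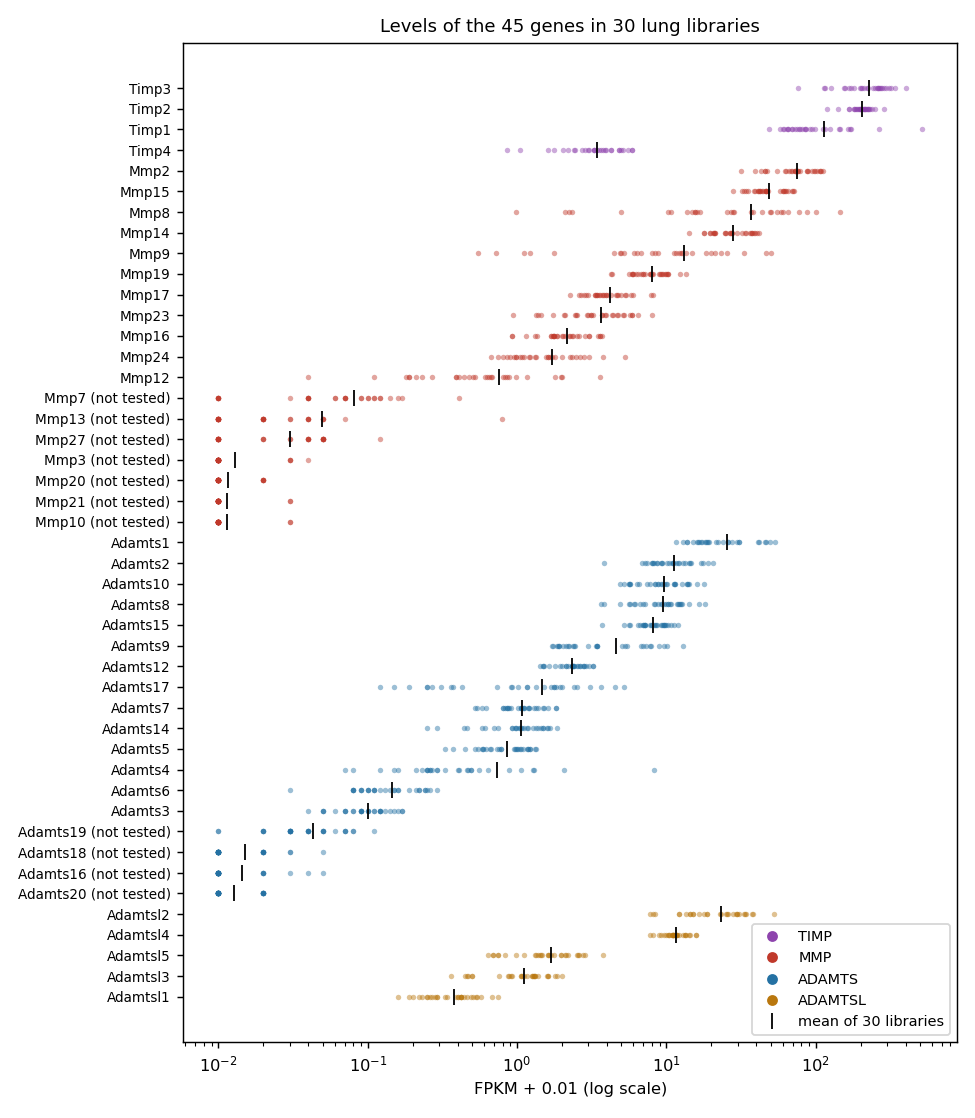
FPKM + 0.01 of each of the 45 genes in each of the 30 libraries on a log axis, coloured by family, with a black tick at the mean. The 3 most abundant genes are the inhibitors Timp3, Timp2 and Timp1, and the 11 genes labelled as not tested had at most 40 reads in any library.

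Of the 45 genes, 34 had enough reads to be tested (11 Mmp, 4 Timp, 14 Adamts and 5 Adamtsl), and 11 did not, namely Adamts16, Adamts18, Adamts19, Adamts20, Mmp3, Mmp7, Mmp10, Mmp13, Mmp20, Mmp21 and Mmp27. A gene was called changed when edgeR's quasi-likelihood test gave a Benjamini-Hochberg adjusted p under 0.05 over all 15934 genes tested and the fold change was at least 2. By that rule 20 of the 34 genes changed in at least 1 of 24 comparisons and 14 in none. Timp2, Timp3, Timp4, Mmp12, Mmp14 and Mmp15 were among those that were not called in any comparison with all rats. Timp3, Timp4 and Mmp14 passed in some fits with 1 rat left out.

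**Figure D2:**
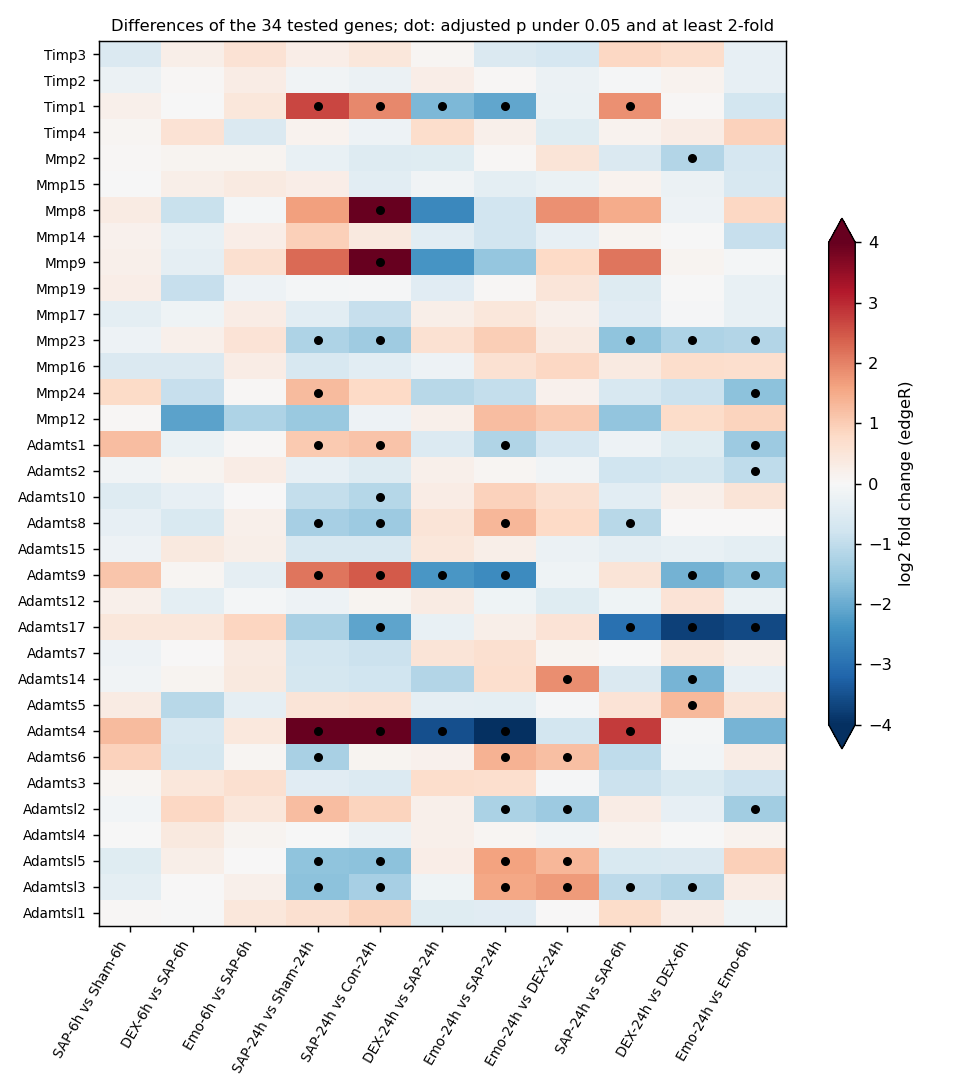
Log2 fold changes of the 34 tested genes (rows) in 11 of the comparisons (columns), with colours that saturate at 4 and a dot where the gene was called. The 6 h comparisons on the left hold no dot, and the 24 h comparisons of SAP with Sham and Con hold 11 and 12.

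At 24 h SAP lungs held more Timp1, Adamts4 and Adamts9 and less Adamtsl3, Adamtsl5 and Adamts8 RNA than Sham lungs. In SAP-24h versus Sham-24h, 6 of the 34 genes were up-regulated and 5 were down-regulated, 32.4% of the genes, beside 5% of all genes tested. The median log2 fold change of the 34 genes was -0.17, beside -0.03 over all genes.

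Timp1, which inhibits most MMPs, stood at 48.5, 60.7 and 57.7 FPKM in Sham-24h rats and at 518, 164 and 265 FPKM in SAP-24h rats. Every SAP-24h rat lay above every Sham-24h rat, with replicate 1 far above the other two. The log2 fold change was 2.66 (SE 0.42, adjusted p = 0.00094 by edgeR's quasi-likelihood test) and 2.03 without SAP-24h replicate 1.

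Adamts4, an aggrecanase that also cuts versican, was almost absent from Sham-24h lungs at 0.14, 0.07 and 0.24 FPKM. In SAP-24h lungs it reached 8.21, 1.26 and 2.06 FPKM. The groups did not overlap, and replicate 1 was again the highest. Its log2 fold change of 4.84 (SE 0.82, adjusted p = 0.0013 by edgeR's quasi-likelihood test) fell to 3.54 without SAP-24h replicate 1 and stayed called.

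Adamts9, a versican- and aggrecan-cutting protease, read 2.11, 3.38 and 1.90 FPKM in Sham-24h rats. In SAP-24h rats it read 12.9, 6.96 and 9.64 FPKM, each above every Sham-24h value. The rise was 2.13 on the log2 scale (SE 0.33, adjusted p = 0.00094 by edgeR's quasi-likelihood test) and stayed called without any 1 rat.

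The ADAMTS-like genes did not move as a block. Adamtsl3 read 2.00, 1.59 and 1.16 FPKM in Sham-24h rats and 0.49, 0.44 and 0.45 FPKM in SAP-24h rats, so that the SAP values were both low and close together. Adamtsl5 read 2.12, 2.61 and 2.56 FPKM in Sham-24h rats and 0.68, 0.82 and 0.68 FPKM in SAP-24h rats, again without overlap. Their log2 fold changes were -1.65 (SE 0.26, adjusted p = 0.00094) and -1.61 (SE 0.33, adjusted p = 0.0041) by edgeR's quasi-likelihood test, and both stayed called without any 1 rat.

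Adamts8, a protease with high transcript levels in lung, read 12.3, 12.0 and 9.40 FPKM in Sham-24h rats. In SAP-24h rats it read 3.84, 3.62 and 4.89 FPKM, below every Sham-24h rat. It fell by 1.32 on the log2 scale (SE 0.27, adjusted p = 0.0040 by edgeR's quasi-likelihood test) and stayed called without any 1 rat. The summed FPKM of 7 fibroblast markers was 254 to 355 in SAP-24h rats and 480 to 616 in Sham-24h rats, and that of 5 smooth muscle markers was 256 to 411 and 482 to 710. The fibroblast marker Dcn did not follow its sum, at 52.9 to 94.55 FPKM in SAP-24h and 59.3 to 81.5 FPKM in Sham-24h rats. The sum of 4 T cell markers was 8.1 to 12.4 FPKM in SAP-24h rats and 34.5 to 53.4 FPKM in Sham-24h rats. Ciliated cell markers were also lower and club cell markers higher in SAP-24h than in Sham-24h rats, without overlap. The part of these cell types in the lower levels was not tested.

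The other 5 calls were lost when some single rats were left out. Mmp24, a membrane-anchored MMP, rose by 1.26 and Adamts1 by 1.03 on the log2 scale, and without SAP-24h replicate 1 these values were 0.57 and 0.49 and not called. Both also lost their call without any 1 of the Sham-24h rats, and with a replicate block Adamts1 was at 0.95 and not called. Adamtsl2, at 1.22 (adjusted p = 0.045 by edgeR's quasi-likelihood test), kept its call only without Sham-24h replicate 3, but its log2 fold change stayed between 1.04 and 1.45 whichever rat was left out. It read 17.9, 28.1 and 30.9 FPKM in SAP-24h rats, each above every Sham-24h rat. Adamts6, a protease of low level here with 3 to 35 reads per library, fell by 1.28 and kept its call only without SAP-24h replicate 2 or 3, and it was at -0.87 without replicate 1. It also lost its call without a filter on low counts. Mmp23, a membrane-bound MMP, fell by 1.22, kept its call only without Sham-24h replicate 3 and was at -0.90 without Sham-24h replicate 1.

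Fitted without the other 8 groups, the 6 libraries of SAP-24h and Sham-24h gave no call among the 33 genes tested there by edgeR, beside 0.02% of all genes, with 17 of them at an unadjusted p under 0.05 (all genes 21.6%). Adjusted p values of Timp1, Adamts4 and Adamts9 were then 0.069, 0.078 and 0.064. DESeq2, run on all 10 groups, called 13 of the genes, beside 6.16% of all genes.

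**Figure D3:**
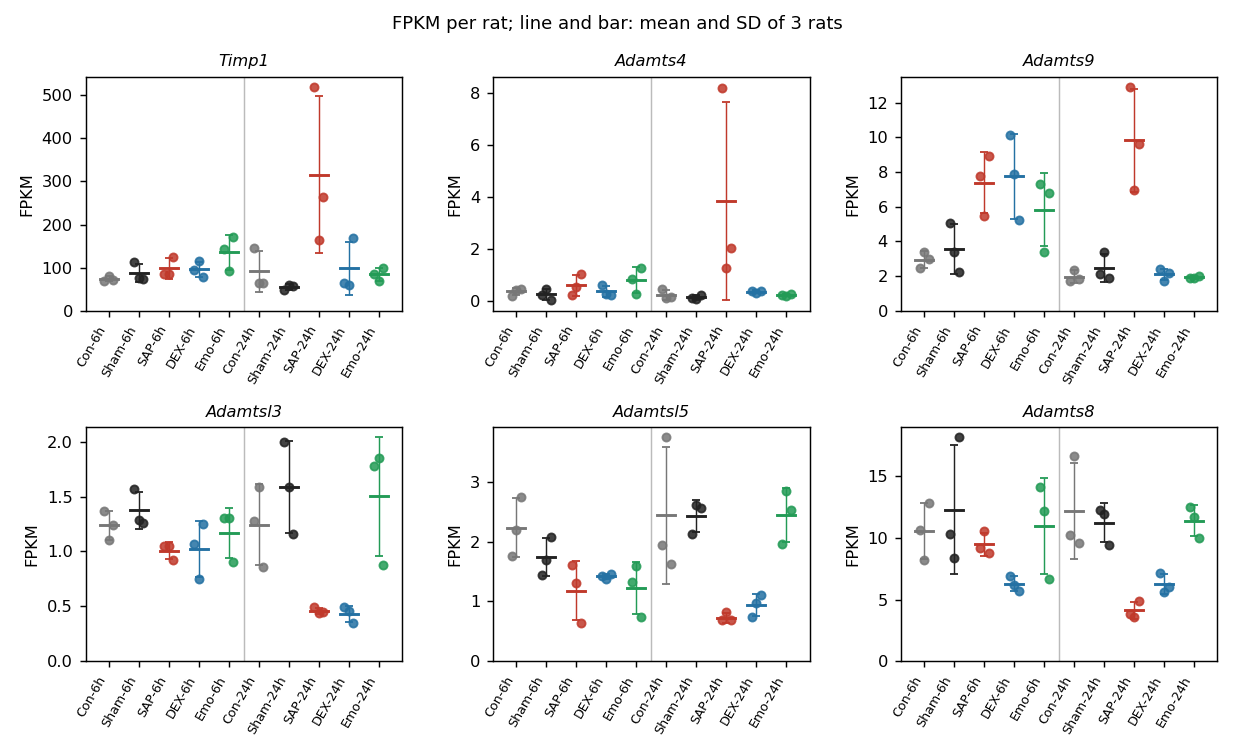
FPKM of Timp1, Adamts4, Adamts9, Adamtsl3, Adamtsl5 and Adamts8 in each rat (points), with the mean (line) and SD (bar) of the 3 rats of each of the 10 groups. The SAP-24h points of the first 3 genes lie above every Sham-24h, and those of the last 3 below, while in Emo-24h rats the means of all 6 lie nearer to Sham-24h than to SAP-24h.

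Against Con-24h rats, SAP-24h rats showed 6 up-regulated and 6 down-regulated genes, 35.3% of the 34, beside 6.91% of all genes. This comparison uses the same SAP-24h rats, so its values stand beside those above and are not separate support. Timp1 was at 1.93, Adamts4 at 4.14, Adamts9 at 2.46 and Adamts1 at 1.15 on the log2 scale, of which Adamts1 was lost without SAP-24h replicate 1 (0.60) or Con-24h replicate 2 (1.06). Without SAP-24h replicate 1, Timp1 was at 1.29 and Adamts4 at 2.82, and without Con-24h replicate 1 Adamts4 was at 5.07.

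The genes lower in SAP-24h than in Con-24h were Adamts17 at -2.11, Adamtsl5 at -1.63, Adamts8 at -1.44, Mmp23 at -1.43, Adamtsl3 at -1.31 and Adamts10 at -1.13. Adamts10, a protease that interacts with fibrillin, lost its call without Con-24h replicate 2 (-0.89), and the other 5 kept theirs without any 1 rat. In a fit of the 6 libraries alone, 4 of the 12 calls remained by edgeR (Adamts8, Adamts9, Mmp8 and Mmp9), beside 1.56% of all genes. Marker sums were lower in SAP-24h than in Con-24h rats without overlap for smooth muscle (256 to 411 and 488 to 892 FPKM), T cells (8.1 to 12.4 and 19.5 to 95.2 FPKM), endothelium (841 to 892 and 1040 to 1248 FPKM) and alveolar type 1 cells (1371 to 2846 and 2879 to 3854 FPKM). Their part in the lower levels was not tested.

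Mmp8 and Mmp9, the neutrophil proteases, differed from Con-24h rats more than any other of the 34 genes. Mmp8 read 4.93, 0.97 and 2.08 FPKM in Con-24h rats and 54.7, 101 and 147 FPKM in SAP-24h rats. Mmp9 read 1.75, 0.54 and 1.11 FPKM in Con-24h rats and 33.2, 49.98 and 46.4 FPKM in SAP-24h rats. Neither gene overlapped between these groups, and the log2 fold changes were 5.35 (SE 1.07, adjusted p = 0.0018) and 5.38 (SE 0.97, adjusted p = 0.00098) by edgeR's quasi-likelihood test. Without Con-24h replicate 1, the log2 fold change of Mmp8 was 6.16.

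Against Sham-24h neither gene was called with all rats. Sham-24h rats spread from 2.34 to 87.3 FPKM for Mmp8 and from 0.71 to 23.4 FPKM for Mmp9, with replicate 3 the highest in both. The log2 fold changes of SAP-24h against Sham-24h were 1.65 (SE 0.90, adjusted p = 0.23) for Mmp8 and 2.28 (SE 0.83, adjusted p = 0.072) for Mmp9 by edgeR's quasi-likelihood test. Without Sham-24h replicate 3 they were 3.82 (SE 1.00, adjusted p = 0.019) and 4.13 (SE 0.92, adjusted p = 0.0081 by the same test), and both genes were called. DESeq2 with all rats called Mmp9 but not Mmp8.

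The summed FPKM of 10 neutrophil markers, none of them an MMP, was 118 to 979 in Con-24h rats, 229 to 9252 in Sham-24h rats and 4554 to 16498 in SAP-24h rats. The highest of the Sham-24h sums was again that of replicate 3, and all 10 markers were detected. S100a8 and S100a9 made up most of each sum, and Ngp and Camp were highest in replicate 1 of the Sham-24h rats. How much of the Mmp8 and Mmp9 levels came with the neutrophils was not tested.

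**Figure D4:**
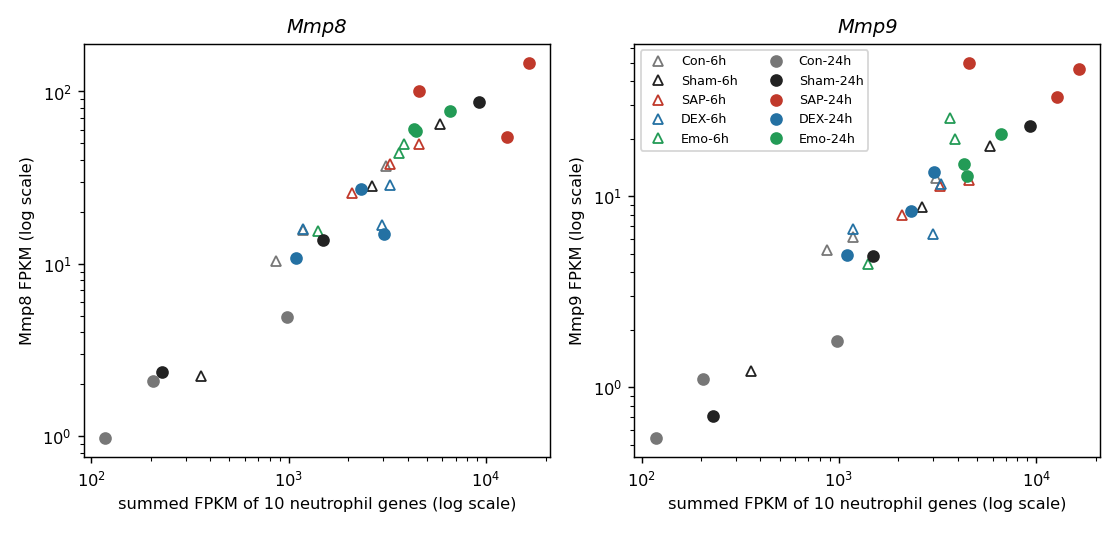
FPKM of Mmp8 (left) and Mmp9 (right) against the summed FPKM of 10 neutrophil marker genes, 1 point per rat, with log scales on both axes. The 3 Con-24h rats lie at the lower left and the 3 SAP-24h rats at the upper right, with Sham-24h replicate 3 at 87.3 FPKM of Mmp8 close to the SAP-24h rats. Both axes come from the same libraries.

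The control operations differed from each other at 24 h in 3 of the 34 genes, 8.82%, beside 1% of all genes. Mmp8 at 3.70, Mmp9 at 3.10 and Adamts6 at 1.39 on the log2 scale were higher in Sham-24h than in Con-24h rats. Without Sham-24h replicate 3, Mmp8 was at 1.53 and Mmp9 at 1.24 and neither was called. Mmp8 and Mmp9 also lost their call without any 1 of the Con-24h rats, at 3.27 to 4.51 and 2.73 to 3.57, and the Sham-24h and Con-24h values of both genes overlapped. Adamts6 kept its call only without Con-24h replicate 3, and lost it with DESeq2 and without a filter on low counts. In the 6 libraries alone all 3 genes lost their call (all genes 0%). Endothelial (779 to 1016 and 1040 to 1248 FPKM), alveolar type 2 and club cell marker sums were lower in Sham-24h than in Con-24h rats. Macrophage sums were higher, all without overlap, and the part of these cell types was not tested. At 6 h Sham and Con rats differed in none of the 34 genes by edgeR (none at an unadjusted p under 0.05, beside 8.61% of all genes, and none with DESeq2), beside 0% of all genes called.

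Given DEX, rats at 24 h had less of the 3 leading genes than untreated SAP rats. In DEX-24h versus SAP-24h, 3 of the 34 genes were down-regulated and none was up-regulated, 8.82% of the genes, beside 3.73% of all genes. The median log2 fold change of the 34 genes was -0.03, beside 0.0022 over all genes. Adamts9 read 2.39, 1.74 and 2.18 FPKM in DEX-24h rats, each below every SAP-24h rat. Against SAP-24h the log2 fold change was -2.33 (SE 0.34, adjusted p = 0.00022 by edgeR's quasi-likelihood test) and stayed called without any 1 rat.

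Adamts4 read 0.39, 0.32 and 0.40 FPKM in DEX-24h rats, below all SAP-24h rats. Its log2 fold change of -3.52 (SE 0.76, adjusted p = 0.0064) was -2.20 and not called without SAP-24h replicate 1 (adjusted p = 0.066 by edgeR's quasi-likelihood test). Timp1 read 65.2, 61.0 and 169 FPKM in DEX-24h rats, and replicate 3 overlapped the lowest SAP-24h rat. Its log2 fold change was -1.81 (SE 0.41, adjusted p = 0.0089 by edgeR's quasi-likelihood test) with all rats. The call was lost without SAP-24h replicate 1 (-1.17) or DEX-24h replicate 1 or 2 (-1.57 each), and without DEX-24h replicate 3 the value was -2.43. In a fit of the 6 libraries alone, Adamts4 and Timp1 lost their call and Mmp8 and Mmp9 gained one, so that 3 genes were called there too, beside 1.49% of all genes.

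Of the genes that were low in SAP-24h rats, Adamtsl3, Adamtsl5 and Adamts8 were also low in DEX-24h rats. Adamtsl3 read 0.49, 0.46 and 0.35 FPKM and Adamtsl5 0.74, 0.97 and 1.11 FPKM in DEX-24h rats, both below all Sham-24h rats. Adamts8 read 7.19, 5.59 and 6.02 FPKM, also below all Sham-24h rats but above all SAP-24h rats. None of the 3 was called between DEX-24h and SAP-24h, and Adamts8 was not called between DEX-24h and Sham-24h either. The fibroblast marker sum was 247 to 333 FPKM in DEX-24h rats, which overlapped the SAP-24h rats, and that of 4 T cell markers was 4.26 to 10.9 FPKM, below every Sham-24h rat. Against SAP-24h rats, B cell (5.42 to 11.8 and 20.01 to 35 FPKM) and club cell marker sums were lower in DEX-24h rats, and those of smooth muscle (444 to 588 and 256 to 411 FPKM), endothelium (923 to 1072 and 841 to 892 FPKM) and ciliated cells were higher, all without overlap. Their part in these levels was not tested.

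Mmp8 and Mmp9 in DEX-24h rats, at 10.8 to 27.2 and 4.93 to 13.4 FPKM, lay below all SAP-24h rats. Their log2 fold changes of -2.59 (SE 0.93, adjusted p = 0.091) and -2.36 (SE 0.83, adjusted p = 0.083) missed the threshold by edgeR's quasi-likelihood test. With DESeq2 both passed, as did Adamts14 and Mmp24, for 7 calls in all, beside 4.84% of all genes. The neutrophil marker sum was 1094 to 3038 FPKM in DEX-24h rats, lower than in any SAP-24h rat. Mmp2 read 31.6, 43.3 and 47.5 FPKM, overlapping the SAP-24h rats at 73.1, 39.3 and 45.9 FPKM.

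Compared with Sham-24h, DEX-24h rats showed 1 up-regulated and 4 down-regulated genes, 14.7% of the 34, beside 4.15% of all genes. Adamts14, a procollagen-trimming protease, read 0.43, 0.28 and 0.24 FPKM in DEX-24h rats against 1.15, 0.96 and 1.49 FPKM in Sham-24h rats, without overlap. Its log2 fold change of -1.88 (SE 0.37, adjusted p = 0.0032) and that of Adamtsl3, -1.82 (SE 0.26, adjusted p = 0.00026), stayed called without any 1 rat by edgeR's quasi-likelihood test. Adamtsl5 at -1.34 was lost without DEX-24h replicate 1 (-1.15) or Sham-24h replicate 3 (-1.25). Fibroblast (247 to 333 and 480 to 616 FPKM), T cell and B cell marker sums were lower in DEX-24h than in Sham-24h rats without overlap. The fibroblast marker Dcn overlapped between these groups (61.2 to 87 and 59.3 to 81.5 FPKM). The part of these cell types in these levels was not tested.

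Adamts17, at -1.58, and Adamtsl2, at 1.41, were called only when no rat or Sham-24h replicate 3 was left out. Adamts17 further lost its call in a fit with a replicate block, without a filter on low counts and in the 6 libraries alone. Adamtsl2 stood at 29.6, 33.8 and 29.1 FPKM in DEX-24h rats and at 8.36, 12.2 and 15 FPKM in Sham-24h rats, with no overlap.

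Emodin-treated rats at 24 h differed from SAP rats in genes of both directions. In Emo-24h versus SAP-24h, 4 of the 34 genes were up-regulated and 5 down-regulated, 26.5% of the genes, beside 3.19% of all genes. The SAP-24h rats are the same as in the comparisons above, so the drug comparisons share their reference rats and do not count as separate support for each other. The median log2 fold change of the 34 genes was 0.05, beside 0.02 over all genes.

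Adamts9 read 1.89, 1.88 and 2.03 FPKM in Emo-24h rats, within the range of the Sham-24h rats or just below it. Its log2 fold change against SAP-24h was -2.51 (SE 0.34, adjusted p = 0.00074 by edgeR's quasi-likelihood test). Adamts4 read 0.24, 0.20 and 0.26 FPKM, with a log2 fold change of -4.25 (SE 0.79, adjusted p = 0.0046). Timp1 read 86.2, 69.1 and 98.4 FPKM, with a log2 fold change of -2.08 (SE 0.41, adjusted p = 0.0056). None of these 3 genes overlapped with SAP-24h, and all stayed called without any 1 rat, at -2.94 for Adamts4 and -1.46 for Timp1 without SAP-24h replicate 1.

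Adamtsl3, Adamtsl5 and Adamts8 were up-regulated in Emo-24h rats. Adamtsl3 read 1.78, 1.85 and 0.88 FPKM, of which replicate 3 was the lowest but still above every SAP-24h rat. Adamtsl5 read 1.96, 2.85 and 2.52 FPKM, and Adamts8 12.5, 11.7 and 10.0 FPKM, also without overlap. Their log2 fold changes were 1.54 (SE 0.26, adjusted p = 0.0027), 1.6 (SE 0.33, adjusted p = 0.0069) and 1.31 (SE 0.27, adjusted p = 0.0068) by edgeR's quasi-likelihood test, each called without any 1 rat. The fibroblast marker sum in Emo-24h rats was 341 to 578 FPKM, with replicate 3 the lowest. The T cell marker sum was 52.2, 45.4 and 12.0 FPKM, also lowest in replicate 3, which overlapped the SAP-24h rats. Smooth muscle and B cell markers were higher and club cell markers lower than in SAP-24h rats, without overlap, and the part of these cell types in these levels was not tested.

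Adamts1 at -1.20 lost its call without SAP-24h replicate 1 (-0.67) or Emo-24h replicate 1 (-1.22) or 2 (-1.04). Adamts6 at 1.38 kept its call only without SAP-24h replicate 2 or 3, was at 0.96 without replicate 1 and lost its call without a filter on low counts. Adamtsl2 at -1.27 was called only when no rat or Emo-24h replicate 3 was left out (-1.89), and its values overlapped.

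In a fit of the 6 libraries of Emo-24h and SAP-24h alone, no gene of the 34 was called by edgeR, beside 0% of all genes, with 17 at an unadjusted p under 0.05 (all genes 21.5%), whereas DESeq2 on all 10 groups called 9, beside 4.39% of all genes. Mmp8 read 58.7, 77.1 and 60.3 FPKM and Mmp9 12.8, 21.3 and 14.8 FPKM in Emo-24h rats. Their log2 fold changes against SAP-24h were -0.76 (SE 0.88, adjusted p = 0.61) and -1.55 (SE 0.81, adjusted p = 0.22) by edgeR's quasi-likelihood test. The neutrophil marker sum was 4321 to 6590 FPKM, which overlapped the SAP-24h range at its lowest rat.

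Against Sham-24h, Emo-24h rats had no called gene among the 34 by edgeR or by DESeq2, with 1 at an unadjusted p under 0.05 (all genes 3%), beside 0% of all genes called. This does not show that the groups were alike.

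The drugs were compared directly at 24 h, at their own doses and routes. Emo-24h rats had 4 genes higher and 1 lower than DEX-24h rats, 14.7% of the 34, beside 5.06% of all genes. Adamtsl3, at 1.71 on the log2 scale (SE 0.26, adjusted p = 0.00034), and Adamts14, at 1.85 (SE 0.37, adjusted p = 0.0033 by edgeR's quasi-likelihood test), stayed called without any 1 rat. Adamts14 read 1.33, 1.59 and 0.69 FPKM in Emo-24h rats, all above the DEX-24h rats.

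Adamtsl5 at 1.32 was lost without DEX-24h replicate 1 (1.13) or Emo-24h replicate 2 (1.18). Adamtsl2 at -1.46 was lost without DEX-24h replicate 2 (-1.38) or Emo-24h replicate 1 (-1.22) or 2 (-1.27), and without Emo-24h replicate 3 it was at -2.11. Adamts6, at 1.21, kept its call only without DEX-24h replicate 1 and lost it under RLE scaling, a replicate block, no filter and the 6 libraries alone. Timp1, Adamts4, Adamts9, Mmp8 and Mmp9 were not called between the drugs, except Mmp8 in the 6 libraries alone (1.82). Marker sums were higher in Emo-24h than in DEX-24h rats without overlap for fibroblasts (341 to 578 and 247 to 333 FPKM), T cells (12.0 to 52.2 and 4.26 to 10.9 FPKM), B cells (36.8 to 64.9 and 5.42 to 11.8 FPKM) and neutrophils (4321 to 6590 and 1094 to 3038 FPKM), and lower for endothelium (738 to 919 and 923 to 1072 FPKM). The part of these cell types was not tested.

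**Figure D5:**
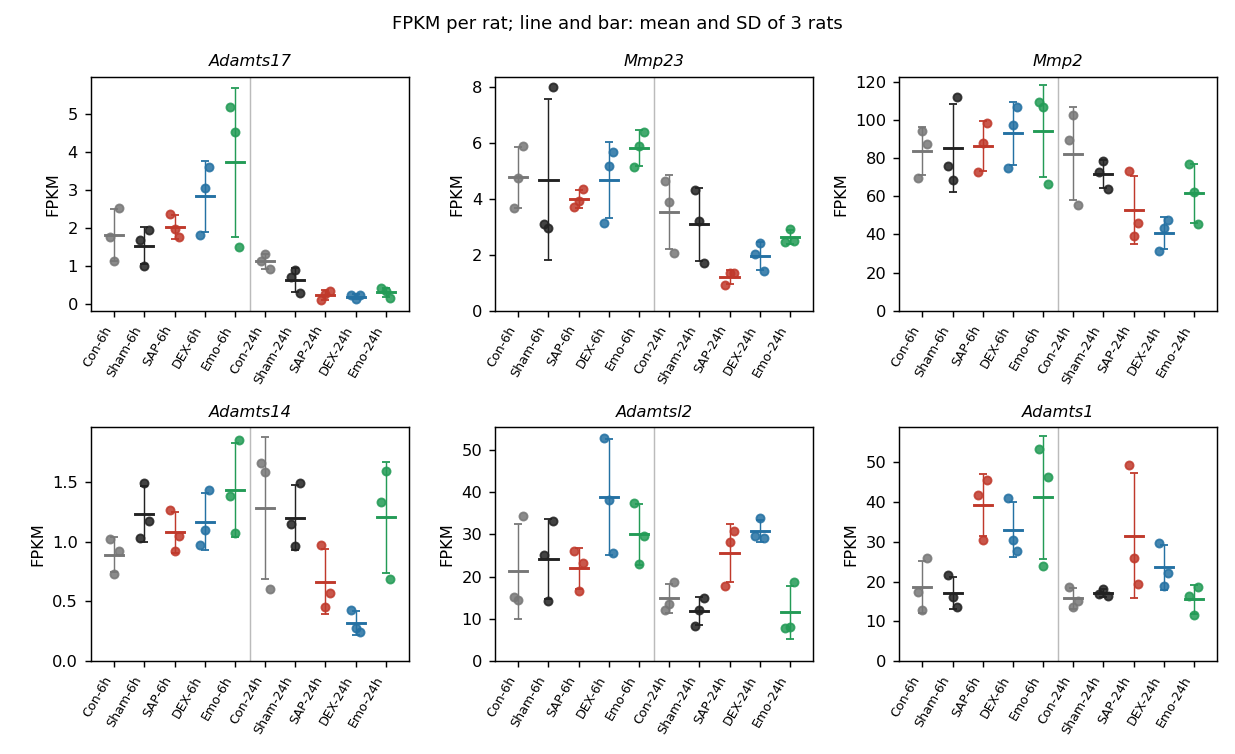
FPKM of Adamts17, Mmp23, Mmp2, Adamts14, Adamtsl2 and Adamts1 in each rat (points), with the mean (line) and SD (bar) of the 3 rats of each of the 10 groups. Adamts17 lies at or below 0.42 FPKM in every SAP-24h, DEX-24h and Emo-24h rat and at or above 1.50 FPKM in the same treatments at 6 h.

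At 6 h few of these genes differed between operations or drugs. In SAP-6h versus Sham-6h no gene of the 34 was called by edgeR, beside 0.22% of all genes, with 5 at an unadjusted p under 0.05 (all genes 13.1%) and 2 with DESeq2 (Adamts1 and Adamts9), beside 1.2% of all genes. In SAP-6h versus Con-6h none was called by edgeR, beside 0.163% of all genes, with 7 at an unadjusted p under 0.05 (all genes 10.4%) and 1 with DESeq2 (Adamts9), beside 0.597% of all genes.

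Adamts9 read 7.78, 5.46 and 8.93 FPKM in SAP-6h rats, each above the Sham-6h rats at 5.05, 3.40 and 2.21 FPKM. The log2 fold change of Adamts9 was 1.11 (SE 0.33, adjusted p = 0.13 by edgeR's quasi-likelihood test). Adamts1 read 41.8, 30.6 and 45.5 FPKM in SAP-6h rats, also above the Sham-6h rats at 21.6, 16.1 and 13.7 FPKM, and it was not called by edgeR. Smooth muscle (454 to 551 and 599 to 798 FPKM) and mesothelium marker sums were lower in SAP-6h than in Sham-6h rats without overlap. Those of endothelium and red cells (1833 to 2349 and 193 to 906 FPKM) were higher without overlap. The part of these cell types was not tested.

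Neither drug gave a call against SAP at 6 h by edgeR or by DESeq2. In DEX-6h versus SAP-6h, beside 0.515% of all genes called, 8 of the 34 genes were at an unadjusted p under 0.05 (all genes 12.1%). In Emo-6h versus SAP-6h, beside 0.0251% of all genes called, none was (all genes 13.5%). In Emo-6h versus DEX-6h no gene was called by either tool, beside 1.41% of all genes, with 7 at an unadjusted p under 0.05 (all genes 17.3%). Without Emo-6h replicate 3, 1 gene, Adamts8, was called there.

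Against Sham-6h, DEX-6h rats had 1 gene higher and 1 lower (5.88%, beside 3.97% of all genes). Adamts9 was at 1.18 and was lost without DEX-6h replicate 1 (0.94) or Sham-6h replicate 2 (1.16) or 3 (0.94). Mmp16, a membrane-anchored MMP, was at -1.16 and was lost without Sham-6h replicate 1 (-0.95). In Emo-6h versus Sham-6h only Adamts1 was called, at 1.31 (2.94%, beside 0.477% of all genes), and it kept its call only without Emo-6h replicate 2. Neither comparison held a call in the 6 libraries alone, with 8 of the genes at an unadjusted p under 0.05 for DEX (all genes 21.9%) and 4 for emodin (all genes 16.2%). In Sham-6h rats endothelial markers summed to 1068 to 1080 FPKM. The sums of DEX-6h (1310 to 1471 FPKM) and Emo-6h rats (1100 to 1624 FPKM) were higher without overlap, as were those of ciliated cells. In untreated SAP-6h rats the endothelial sum (1129 to 1534 FPKM) also lay above that of Sham-6h rats without overlap. The part of these cell types was not tested.

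Between 6 and 24 h the sharpest fall was that of Adamts17, a protease linked to the fibrillin network. In SAP rats it read 2.38, 1.98 and 1.76 FPKM at 6 h and 0.11, 0.26 and 0.36 FPKM at 24 h. In DEX rats it read 1.82, 3.06 and 3.62 FPKM and then 0.24, 0.14 and 0.24 FPKM, and in Emo rats 5.17, 4.52 and 1.50 FPKM and then 0.42, 0.35 and 0.18 FPKM. The times did not overlap in any of the 3 treatments, and the log2 fold changes were -3.00 (SE 0.48, adjusted p = 0.0021), -3.74 (SE 0.50, adjusted p = 3.9e-05) and -3.61 (SE 0.49, adjusted p = 3.2e-05) by edgeR's quasi-likelihood test, each called without any 1 rat.

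In Sham rats Adamts17 read 1.69, 1.00 and 1.94 FPKM at 6 h and 0.72, 0.90 and 0.30 FPKM at 24 h, also without overlap. The log2 fold change in Sham rats was -1.25 (SE 0.45, adjusted p = 0.12 by edgeR's quasi-likelihood test). In Con rats Adamts17 read 1.77, 1.15 and 2.52 FPKM at 6 h and 1.15, 1.32 and 0.92 FPKM at 24 h, which overlapped, with a log2 fold change of -0.64 (SE 0.44, adjusted p = 0.65 by the same test). Different rats were taken at each time.

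SAP-24h versus SAP-6h gave 2 up-regulated and 4 down-regulated genes (17.6%, beside 2.42% of all genes). Timp1 at 1.82 was lost without SAP-24h replicate 1 (1.18) or SAP-6h replicate 1 (1.76). Adamts4 at 2.81 was lost without SAP-24h replicate 1 (1.50) or SAP-6h replicate 1 (2.46) or 2 (2.73), and was at 3.40 without SAP-6h replicate 3. Mmp23 at -1.62 was lost without SAP-24h replicate 1 (-1.50).

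Adamts8 at -1.11 was lost without SAP-24h replicate 1 (-1.10) or SAP-6h replicate 1 (-1.09) or 2 (-1.05). Adamtsl3 at -1.03 was lost without SAP-24h replicate 2 (-0.98) or 3 (-0.99) or SAP-6h replicate 1 (-0.95). Without SAP-6h replicate 1, 2 genes were called in this comparison. In a fit of the 6 libraries alone, Timp1, Adamts4 and Adamtsl3 lost their call and Mmp9 gained one. The fibroblast marker sum was 478 to 928 FPKM in SAP-6h rats and 254 to 355 FPKM in SAP-24h rats, without overlap. Its marker Dcn overlapped between the times (25.8 to 71.4 and then 52.9 to 94.55 FPKM). Endothelial markers summed to 1129 to 1534 FPKM and then 841 to 892 FPKM, and T cell, B cell, smooth muscle and red cell markers were also lower at 24 h without overlap, while club cell and neutrophil markers were higher. The part of these cell types was not tested.

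DEX-24h versus DEX-6h gave 1 up-regulated and 6 down-regulated genes (20.6%, beside 7.14% of all genes). Mmp2 fell from 74.8, 97.1 and 107 FPKM to 31.6, 43.3 and 47.5 FPKM without overlap, at -1.17 on the log2 scale, and was just short of 2-fold without DEX-24h replicate 1. Adamts9 (-1.88), Adamts14 (-1.86) and Adamtsl3 (-1.21) were also lower at 24 h, each called without any 1 rat. Mmp23 at -1.22 was lost without DEX-24h replicate 3 (-1.03) or DEX-6h replicate 2 (-1.13) or 3 (-1.09). Adamts5 was at 1.30, and was lost without DEX-24h replicate 1 (1.00). The fibroblast marker sum was 356 to 800 FPKM in DEX-6h rats and 247 to 333 FPKM in DEX-24h rats. Its marker Dcn went the other way without overlap (50.2 to 55.99 and then 61.2 to 87 FPKM). The endothelial sum was 1310 to 1471 FPKM and then 923 to 1072 FPKM. T cell and B cell markers were also lower at 24 h without overlap, and the part of these cell types was not tested.

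Emo-24h versus Emo-6h gave 7 down-regulated genes and none up-regulated (20.6%, beside 9.41% of all genes). Besides Adamts17, Adamts9 (-1.64), Adamts1 (-1.45), Mmp24 (-1.64) and Mmp23 (-1.18) were called without any 1 rat, Mmp24 at -1.05 without Emo-6h replicate 1. Adamtsl2 at -1.40 was lost without Emo-24h replicate 1 (-1.17) or 2 (-1.21), and was at -2.02 without Emo-24h replicate 3. Adamts2, which trims procollagen I, was at -1.03 and was lost without Emo-6h replicate 1 (-0.85) or 2 (-0.98). The fibroblast marker sum was 778 to 901 FPKM in Emo-6h rats, above the Emo-24h range. Of its markers, Dcn went the other way without overlap (19.2 to 31.6 and then 86.9 to 131.8 FPKM). Lum, also a fibroblast marker, overlapped between the times (1.81 to 4.64 and then 2.08 to 6.68 FPKM). The endothelial sum was 1100 to 1624 FPKM and then 738 to 919 FPKM. Smooth muscle, mesothelium and red cell markers were also lower at 24 h without overlap and neutrophil markers higher, and the part of these cell types was not tested.

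In Sham rats no gene of the 34 was called between the times by edgeR (6 at an unadjusted p under 0.05, beside 20.4% of all genes, and 1 with DESeq2, which was Mmp24, beside 1.06% of all genes), beside 0.257% of all genes. In Con rats none was called by edgeR or by DESeq2 (4 at an unadjusted p under 0.05, beside 10.5% of all genes), beside 0.00628% of all genes.

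Whether an effect differed between 6 and 24 h was tested as the difference of the 2 effects. For SAP against Sham no gene passed by edgeR (10 at an unadjusted p under 0.05, beside 12.6% of all genes), beside 0.0314% of all genes, and DESeq2 called Timp1, Adamts4 and Adamts6, beside 0.917% of all genes. For DEX against SAP the effect on Adamts9 differed (2.94%, beside 0.138% of all genes), and for emodin against SAP the effects on Adamts4, Timp1, Adamts9 and Adamtsl3 differed (11.8%, beside 1.68% of all genes). In the compared groups alone none of these 5 calls was made by edgeR, with 8 genes at an unadjusted p under 0.05 for DEX (all genes 12.3%) and 13 for emodin (all genes 21.1%), and Adamtsl3 also lost its call without a filter on low counts.

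Of 34 genes that act with these proteases (plasminogen activators, cathepsins, ADAMs, other protease inhibitors and substrates), 33 were tested. In SAP-24h versus Sham-24h 2 rose and 2 fell (all genes 5%), and the median log2 fold change of the 33 was 0.34, beside -0.03 over all genes. All 4 lost their call in a fit of the 6 libraries alone. Plaur, the urokinase receptor, was at 1.31 and stayed called without any 1 rat. Plat, tissue plasminogen activator, was at 1.96 and was lost without SAP-24h replicate 1 (1.36). The small proteoglycans Lum, at -1.88, and Bgn, at -1.13, were lost without SAP-24h replicate 1 (-1.61 and -0.95) or Sham-24h replicate 1 (-1.68 and -1.03) or 2 (-1.81 and -0.91), and Lum also without SAP-24h replicate 2 (-1.84). Lum is also 1 of the 7 fibroblast markers.

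Against Con-24h, SAP-24h rats had 7 of the 33 genes higher and 3 lower, beside 6.91% of all genes called. Vcan, the versican substrate of several ADAMTS proteases, was at 3.43, Elane, neutrophil elastase, at 4.28, the broad inhibitor A2m at 3.79, Plat at 2.03 and Plaur at 1.26, each called without any 1 rat. Bgn was at -1.38 and kept its call in the same way. Without Con-24h replicate 1 the values of Vcan, Elane and A2m were 4.07, 6.34 and 4.54, and without SAP-24h replicate 1 that of Plat was 1.43. Adam9 (1.29), Fn1 (1.12), Plau (-1.11) and Bcan (-2.53) were also called, and all 4 were lost without SAP-24h replicate 1 (0.98, 0.95, -0.94 and -2.73). Fn1 was also lost without Con-24h replicate 3 (0.96), Plau without Con-24h replicate 2 (-1.04) or 3 (-0.98), and Bcan kept its call only without Con-24h replicate 3. Levels of Elane in Con-24h rats were 0 to 0.44 FPKM and those of A2m 0.01 to 0.05 FPKM, so these folds rest on few reads. The fold of Bcan also rests on very low levels, 0.12 to 0.28 FPKM in Con-24h and 0.02 to 0.04 FPKM in SAP-24h rats. In the 6 libraries alone, Vcan, A2m and Plaur of these 10 genes stayed called.

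In DEX-24h versus SAP-24h 2 of the 33 genes fell and none rose, beside 3.73% of all genes called. Vcan was at -2.38 and was lost without any 1 of the DEX-24h rats (-2.53 to -2.29), and Adam19 at -1.21 was lost without SAP-24h replicate 2 (-0.95) and in the 6 libraries alone. In Emo-24h versus SAP-24h 2 rose and 2 fell, beside 3.19% of all genes called, and all 4 lost their call in the 6 libraries alone. Plaur was at -1.16 and lost without Emo-24h replicate 1 (-0.96), and Plat at -1.65 was lost without SAP-24h replicate 1 (-1.06) or Emo-24h replicate 1 (-1.61) or 2 (-1.40). Lum at 1.86 and the protease Adam12 at 2.17 each lost their call without SAP-24h replicate 1 or 2 or Emo-24h replicate 1 or 2, at 1.57 to 1.81 and 1.91 to 2.15. Adam12 was at 0.02 to 0.04 FPKM in SAP-24h and 0.09 to 0.19 FPKM in Emo-24h rats, so its fold rests on very low levels.

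Between the drugs at 24 h, Emo-24h rats had more Lum (2.42) and Adam12 than DEX-24h rats, and none of the 33 genes was lower, beside 5.06% of all genes called. Both stayed called without any 1 rat. Adam12 was at 0 to 0.01 FPKM in DEX-24h rats, 0.09 to 0.19 FPKM in Emo-24h rats and 0.09 to 0.13 FPKM in Sham-24h rats, so no fold is given against DEX-24h. In DEX-24h versus Sham-24h, where 4.15% of all genes were called, Adam12 was lower, Lum was at -2.45 and A2m at 3.81, of which Lum was lost without DEX-24h replicate 3 (-2.22).

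At 6 h, DEX-6h rats had Plau at -1.42 and Plaur at 1.03 and the protease inhibitor Serpine2 at 1.01 against Sham-6h rats, 3 of the 33 genes beside 3.97% of all genes called. Each was lost without some single rats, at -1.17 and -0.94 for Plau, 0.93 to 1.00 for Plaur and 0.86 to 0.99 for Serpine2, and Plau also in the 6 libraries alone. In Emo-6h versus DEX-6h, Adam19 was at 1.28 (all genes 1.41%) and was lost without DEX-6h replicate 1 (1.35) or 3 (1.18) or Emo-6h replicate 1 (1.10) and in the 6 libraries alone. The other comparisons at 6 h had no call on the list by edgeR, and those of DESeq2 included Plau in SAP-6h versus Con-6h (-1.54) and Adam8 in Emo-6h versus Sham-6h (1.11). Of the 33 genes, 9 were at an unadjusted p under 0.05 in SAP-6h versus Sham-6h (all genes 13.1%), 8 in Emo-6h versus Sham-6h (22.6%), 5 in SAP-6h versus Con-6h (10.4%) and in DEX-6h versus SAP-6h (12.1%), 4 in Emo-6h versus SAP-6h (13.5%) and 1 in Sham-6h versus Con-6h (8.61%). The emodin effect differed between times for Plaur (-1.51) and Lum (2.61), beside 1.68% of all genes, and both lost these calls in the compared groups alone and without 5 and 8 of the single rats. Lum also lost its call with a replicate block and without a filter on low counts.

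Over time the proteoglycan Bgn was lower at 24 h than at 6 h in SAP (-2.05), DEX (-2.02) and Emo (-1.93) rats, and A2m was higher in DEX (3.29) and Emo (3.93) rats, each called without any 1 rat. In SAP rats the collagen-cutting cathepsin Ctsk was also lower (-1.66), in DEX rats Adam12 and Lum (-2.09) were lower and Plau (1.36) higher, and in Emo rats Dcn was higher (2.04), all called without any 1 rat. Of these, Ctsk lost its call in a fit of the 6 libraries alone. Dcn, like Lum, is also among the fibroblast markers. A2m in Emo rats was at 3.25 without Emo-24h replicate 3, 3.31 without Emo-6h replicate 2 and 4.84 without Emo-6h replicate 3. Levels of A2m were 0 to 0.03 FPKM in Emo-6h and 0.06 to 0.13 FPKM in DEX-6h rats, so these folds rest on few reads. Time comparisons gave 4 down-regulated of the 33 genes in SAP rats (all genes 2.42%), 2 up-regulated and 3 down-regulated in DEX rats (7.14%) and 2 up-regulated and 5 down-regulated in Emo rats (9.41%).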

How the data were processed

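Lungs of 30 rats (10 groups of 3) were compared. The authors trimmed 150-nt paired reads of directional poly(A) libraries with the FASTX-Toolkit, mapped them to rat_ensembl_v6 with TopHat2, discarded multi-mapped reads, and deposited counts and FPKM per gene, the FPKM at 2 decimals. The counting program was not given in the sources used here. The submitters' processing notes also name bcl2fastq and edgeR.

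The deposited counts were filtered with filterByExpr (minimum count 10, minimum total 15), scaled by TMM and fitted in a single 10-group model with edgeR 4.0.16 (R 4.3.3, residual degrees of freedom 20). P values were adjusted by Benjamini-Hochberg over 15934 genes, and a gene was called at adjusted p under 0.05 and at least 2-fold. These p values set each difference against the spread between rats within groups, estimated over all 10 groups of 3 rats. The SE printed beside a log2 fold change is its absolute value divided by the square root of the test's F statistic. Deposited FPKM values served for levels. Comparisons with the time terms tested the 24 h effect minus the 6 h effect.

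Genes were named if called in a comparison, if among the 10 highest by mean FPKM, or if on a list of well-known family members. The genes and lists were chosen with earlier results of these data known. Alternatives were DESeq2 1.42.0, RLE scaling, no filter, no fold minimum, a replicate block, the compared groups alone and each rat left out. On simulated counts for SAP-24h versus Sham-24h (15766 genes), 36 of 100 genes changed 2-fold and 91 of 100 changed 4-fold were recovered, with 5 false calls. A simulated 2-fold change lies at the fold minimum of a call, which by itself limits its recovery. The changed genes were drawn from those above a minimum mean count, so recovery of genes with few reads was not measured. The replicate numbers carry no pairing in the labels. Same-numbered rats deviated together by over 0.1 in every pair only in DEX-24h versus DEX-6h (r from 0.213 to 0.231), where the replicate block gave 7 calls, as did the fit without it. Cell type markers were summed as FPKM, and Cpb1, Foxj1, Hba-a2 and Pecam1 were not matched by symbol. A gene of the list of proteins that act with these proteases is not reported here.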

Additional observations from a re-analysis of the deposited data

Results flagged for a closer look

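In 5 cases the effect of a drug differed between 6 and 24 h by the test of the difference itself (edgeR's quasi-likelihood test, Benjamini-Hochberg adjustment, given as the 24 h log2 effect minus the 6 h log2 effect, with 3 rats per group). For emodin against SAP the difference was -4.67 for Adamts4 (SE 1.04, adjusted p = 0.025), -2.54 for Timp1 (SE 0.57, adjusted p = 0.025), -2.17 for Adamts9 (SE 0.46, adjusted p = 0.022) and 1.34 for Adamtsl3 (SE 0.36, adjusted p = 0.041). For DEX against SAP it was -2.40 for Adamts9 (SE 0.46, adjusted p = 0.033).

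All 5 lost their call when some single rat was left out. Without SAP-24h replicate 1 the differences for emodin were -3.36 for Adamts4 and -1.92 for Timp1, and that for DEX was -2.10 for Adamts9, none of them called. Adamts4 was at -5.26 without SAP-6h replicate 3. Adamts4, Timp1 and Adamts9 under emodin also lost their call without Emo-24h replicate 1 or 2, Emo-6h replicate 1 or 3, or SAP-6h replicate 2, at -4.68 to -4.19, -2.53 to -2.36 and -2.16 to -1.96. Adamtsl3 was lost in 10 of 12 such fits, at 1.15 to 1.57 over all 12, and Adamts9 under DEX in 8 of 12, at -2.65 to -2.10 over all 12. Both drug comparisons use the same SAP rats.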

How the results depend on the processing

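Counts of called genes are of 34. With DESeq2 the count was 2 instead of 0 for SAP-6h versus Sham-6h, 1 instead of 0 for SAP-6h versus Con-6h and Sham-24h versus Sham-6h, 2 instead of 1 for Emo-6h versus Sham-6h, 7 instead of 3 for DEX-24h versus SAP-24h, and for the differences between times 3 instead of 0 (SAP), 2 instead of 1 (DEX) and 7 instead of 4 (emodin). In the compared groups alone it was 0 instead of 2 for DEX-6h versus Sham-6h, 1 for Emo-6h versus Sham-6h, 11 for SAP-24h versus Sham-24h, 3 for Sham-24h versus Con-24h, 9 for Emo-24h versus SAP-24h, 1 and 4 for the differences between times of DEX and emodin, and 4 instead of 12 for SAP-24h versus Con-24h. The design differs there in having fewer libraries to estimate the spread. Without a fold minimum Emo-24h versus Emo-6h had 11 instead of 7. RLE scaling and no filter kept every count within 1.5 times of that reported.

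With 1 rat left out, counts ranged over 0 to 1 for Emo-6h versus DEX-6h, 1 to 3 for DEX-6h versus Sham-6h, 0 to 1 for Emo-6h versus Sham-6h, 6 to 12 for SAP-24h versus Sham-24h, 10 to 14 for SAP-24h versus Con-24h, 0 to 2 for Sham-24h versus Con-24h, 1 to 5 for DEX-24h versus SAP-24h, 6 to 9 for Emo-24h versus SAP-24h, 2 to 4 for Emo-24h versus DEX-24h, 3 to 4 for DEX-24h versus Sham-24h, 2 to 6 for SAP-24h versus SAP-6h, 5 to 7 for DEX-24h versus DEX-6h, 7 to 9 for Emo-24h versus Emo-6h, and 0 to 1 and 0 to 8 for the differences between times of DEX and emodin. Of 76 called gene and comparison pairs, 37 stayed called in every such fit. The causes of these shifts were not tested.

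With the replicate block SAP-24h versus Sham-24h had 10 calls instead of 11, Emo-24h versus DEX-24h 4 instead of 5, DEX-24h versus Sham-24h 4 instead of 5, DEX-6h versus Sham-6h 3 instead of 2 and the difference between times of emodin 5 instead of 4, and all other counts of called genes were as reported. Same-numbered rats correlated at -0.362 to 0.358 over all comparisons. No log2 fold change of a called gene changed sign under any alternative. Depth limits the low genes most: Adamts6 rests on 3 to 35 reads per library, and 11 genes could not be tested.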

Other observations

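Mmp13, the broad collagenase of the chromosome 8 cluster, had 40 reads and 0.78 FPKM in SAP-6h replicate 3, and at most 5 reads in every other library. It had reads in 18 of the 30 libraries and did not pass the filter on low counts, so it was not tested, and the value was singled out after it was seen.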
